A study of Mus musculus with 10 samples.

Results

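The genes described here carry the signal of G-protein-coupled receptors from the receptor to cyclic AMP (cAMP). They are the subunits of heterotrimeric G proteins, the RGS proteins, the adenylyl cyclases, the cyclic nucleotide phosphodiesterases and the subunits of protein kinase A (PKA). Members were taken by symbol: 92 rows of the table carried a symbol that begins with Rgs, Gna, Gnb, Gng, Adcy, Pde or Prka in the forms that name these proteins. Of these rows 89 were protein coding and 3 were processed pseudogenes, and Rgs5 was left out by the rule, which gave 88 members among 18464 genes. No expression value entered the rule. The members are 14 G alpha, 6 G beta, 11 G gamma, 18 RGS, 9 adenylyl cyclase, 22 phosphodiesterase and 6 PKA genes. Prkaa1 and Prkaa2, which encode the catalytic subunits of AMP-activated kinase and not of PKA, are also taken by their symbols and are given apart. A few members share a family's symbol but not its activity, among them Gnb1l, Rgs7bp, Rgs9bp, Pde4dip, Pde12 and Pde6d, which encodes a prenyl-binding protein.

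RNA was sequenced from the ventral midbrain, a region that holds the substantia nigra pars compacta (SNpc) and the ventral tegmental area (VTA), of naive Aldh1l1-NuTRAP mice. NuTRAP mice carry a tag on ribosomes and nuclei, here in cells in which the Aldh1l1 promoter has been active. The labels give 5 input libraries, from RNA of all cell types of the tissue, and 5 libraries of the astrocyte fraction, labelled posfxn, which is the RNA isolated through the tag. Both groups are polyA RNA of the same strain without treatment, and age and sex are not in the labels used here. Every input has an astrocyte fraction with the same number in its title (88, 92, 976, 981 or 982). Whether a number is 1 animal or a pool is not stated, so a p-value here measures the spread between libraries, which may be technical. All comparisons are astrocyte fraction against input, and an input holds the astrocytes' own RNA as well.

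A receptor that binds its ligand loads a G alpha subunit with GTP, and G alpha and the G beta-gamma dimer then act on effectors until the GTP is hydrolysed, a step that RGS proteins speed up. Gs-type subunits stimulate adenylyl cyclase and Gi-type subunits inhibit it, and the cAMP that forms releases the catalytic subunits of PKA from their regulatory subunits, until phosphodiesterases break cAMP down. Astrocytes are known to respond through such receptors to noradrenaline, adenosine, dopamine and glutamate.

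Of the 88 members, 86 had enough counts to be tested, and Gna14 and Pde6g, both on average below 1 CPM (the count relative to the TMM-scaled size of the library) in either group, did not. At an adjusted p under 0.05 (edgeR quasi-likelihood test, Benjamini-Hochberg over all 17672 genes tested), 23 members were higher in the astrocyte fraction (26.7%) and 55 were lower (64%). Over all genes tested the same test called 33.1% higher and 37.5% lower, 70.6% in all. The ranges of the 2 groups did not overlap for 71 members (82.6%), against 58.2% of all genes tested. The median log2 fold change was -0.97 over the members and -0.06 over all genes tested. All 23 higher members were higher in the fraction of all 5 title numbers, and all 55 lower members were lower in all 5. A change of more than 2-fold was called upward for 14 members and downward for 42, against 16.1% and 24.3% of all genes tested. With libraries scaled to their total counts in place of TMM, 17 members were higher and 59 lower, and the share of higher genes among those called was 22.4% of members and 34% of all genes, against 29.5% and 46.9% with TMM.

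**Figure D1:**
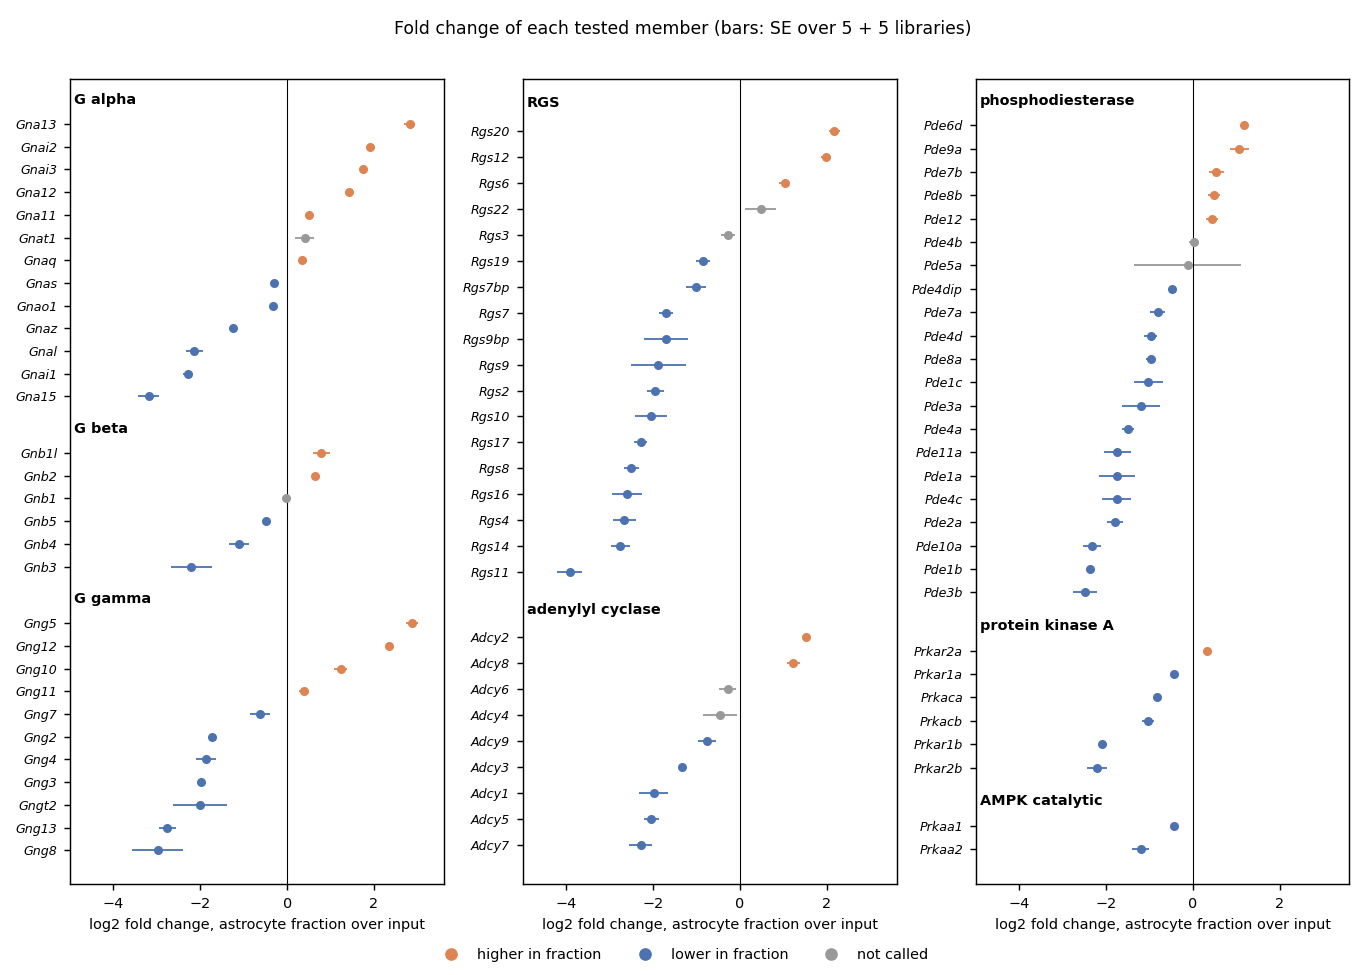
Log2 fold change (astrocyte fraction minus input) of the 86 tested members by family, with standard errors and coloured by call at an adjusted p under 0.05. Every family but the AMP-activated kinase pair holds members on both sides of 0, and the values run from -3.92 for Rgs11 to 2.88 for Gng5.

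Markers of cell types moved with the labels. All 7 astrocyte markers rose, and their summed level went from 2821 to 3116 CPM in the inputs to 16473 to 25999 CPM in the fractions. All 5 neuron markers fell, with sums of 3406 to 4147 CPM and 671 to 1002 CPM, and so did all 5 oligodendrocyte markers (5165 to 6375 and 568 to 733 CPM) and all 5 microglia markers (171 to 241 and 9.57 to 10.9 CPM). The dopamine neuron (4), GABA neuron (3) and oligodendrocyte precursor (3) markers all fell as well. Of the mural markers 1 rose and 3 fell, of the endothelial markers 1 fell and 2 were not called, and of the ependymal markers 1 rose and 2 were not called. Of the markers found in the table, the ependymal marker Tmem212 was at 0 in fractions 92 and 981, and none of the others was at 0 in any library. A member's lower level stands beside neuron markers that fell by 2.18 to 2.57 on the log2 scale, and 16 members lay at or below the log2 fold change of Snap25. Their part in the members' values was not tested. Fraction and input differ both in the cell types that gave the RNA and in its isolation through the tag, and these cannot be told apart here. Among the input libraries, fewer cells of a type and less RNA per cell cannot be told apart. Totals of expected counts were 3845554 in fraction 92 and 24479136 to 26924406 in the other fractions. The 2 choroid plexus markers in the table, Ttr and Clic6, were not called and were high in numbers 976 and 982 of both groups (sums of 630 to 11720 CPM against 6.60 to 77.2 CPM). Yet both were higher in the fraction than in the input of every title number, with log2 fold changes of 1.90 (Ttr) and 2.66 (Clic6). The part of choroid plexus RNA in the members' values was not tested.

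Among the G alpha subunits, 6 rose, 6 fell and 1 of the 13 tested was not called. The counts of this and every other family stand beside 33.1% of all genes tested called higher and 37.5% called lower. Gna12 and Gna13, which form a class of their own among G alpha subunits, both rose, as did the Gi subunits Gnai2 and Gnai3. The Gs-type subunits Gnas and Gnal both fell, with the Gi-type subunits Gnai1, Gnao1 and Gnaz. Of the phospholipase C-coupled Gq subunits, Gnaq and Gna11 rose by less than 0.5 on the log2 scale and Gna15, known from blood cells, fell from 2.18 ± 0.697 to 0.185 ± 0.0643 CPM.

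Gna13 (ENSMUSG00000020611, chromosome 11, 109362831 to 109401369 on mm10) stood at 63.6, 61.7, 53.8, 67.7 and 54.4 CPM in inputs 88, 92, 976, 981 and 982, and at 458, 404, 329, 533 and 398 CPM in the fractions of the same order. The lowest fraction lay above the highest input by more than the whole range of the inputs, and the log2 fold change was 2.82 ± 0.13 (SE, adjusted p = 6.79e-10). Gnai2 (ENSMUSG00000032562, chromosome 9, 107614125 to 107635367) read 235, 198, 226, 214 and 211 CPM in the inputs and 831, 772, 735, 892 and 836 CPM in the fractions. Its log2 fold change was 1.91 ± 0.06 (adjusted p = 2.95e-10), with no overlap between the groups. Gnai1 (ENSMUSG00000057614, chromosome 5, 18265135 to 18360355), the close relative of Gnai3, went the other way, from 135, 137, 109.9, 138 and 125 CPM to 28.0, 25.5, 33.0, 21.6 and 23.9 CPM. Gnai1 fell by 2.28 on the log2 scale (SE 0.12, adjusted p = 2.05e-09), while Gnai3 rose from 29.2 ± 0.428 to 98.0 ± 9.46 CPM (mean and SD of 5 libraries), or by 1.74 on that scale. Both groups were separate for either gene. The log2 ratio of Gnai1 to Gnai3 within a library went from 2.14 ± 0.15 in the inputs to -1.90 ± 0.33 in the fractions (SD, n = 5), which is a 16.4-fold change of the ratio.

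Gnas, the widely expressed Gs subunit, fell from 1809 ± 82.0 to 1462 ± 112 CPM, by 0.31 on the log2 scale (adjusted p = 0.00204). Of its exon bases 22.0% are shared with genes on the other strand, Nespas among them, and the strand setting of the counting is not given in the sources used here. Gnal, the Gs-type subunit known from olfactory neurons and striatum, fell from 302 ± 30.1 to 69.5 ± 20.6 CPM, by 2.14 on the log2 scale, so that the ratio of Gnas to Gnal rose by 1.85 ± 0.22 (log2, SE). Gnao1, the main Go subunit of neurons, went from 628 ± 29.8 to 504 ± 28.1 CPM (log2 fold change -0.32) and Gnaz from 80.9 ± 3.63 to 34.5 ± 2.64 CPM (-1.23). Gna12 rose from 168 ± 13.5 to 451 ± 58.9 CPM (1.43), less than Gna13: the ratio of Gna12 to Gna13 fell by 1.38 on the log2 scale. Gna11 rose by 0.49 and Gnaq by 0.35, and scaled to total counts Gnaq was not called (0.06, adjusted p = 0.482). Gnat1, the rod transducin subunit, stood at 2.48 ± 0.368 and 3.46 ± 1.24 CPM and was not called (adjusted p = 0.138).

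Expressed per kilobase of merged exons, the make-up of the family differed between the groups. Merged exons take in every annotated exon of a gene, whether or not it is expressed here, so genes can be compared only roughly. Gnas held 32.9 ± 0.979% of the G alpha sum in the input and 18.2 ± 2.17% in the fraction (SD, n = 5). Gnai2 held 11.7 ± 0.698% and 29.9 ± 0.662%. Per kilobase Gnai2 was thus above Gnas in the fraction, but without exon length Gnas stayed first, with 34.2% of the counts against 19.0% for Gnai2. The shares of Gna12 went from 9.997 ± 0.907% to 18.3 ± 1.605%, those of Gna13 from 1.90 ± 0.155% to 9.14 ± 1.19%, and those of Gnai1 from 8.35 ± 0.669% to 1.18 ± 0.249%. The sum of the family was 492 ± 11.1 CPM per kilobase in the input and 719.7 ± 38.8 in the fraction, with no overlap of libraries. These shares carry no test.

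**Figure D2:**
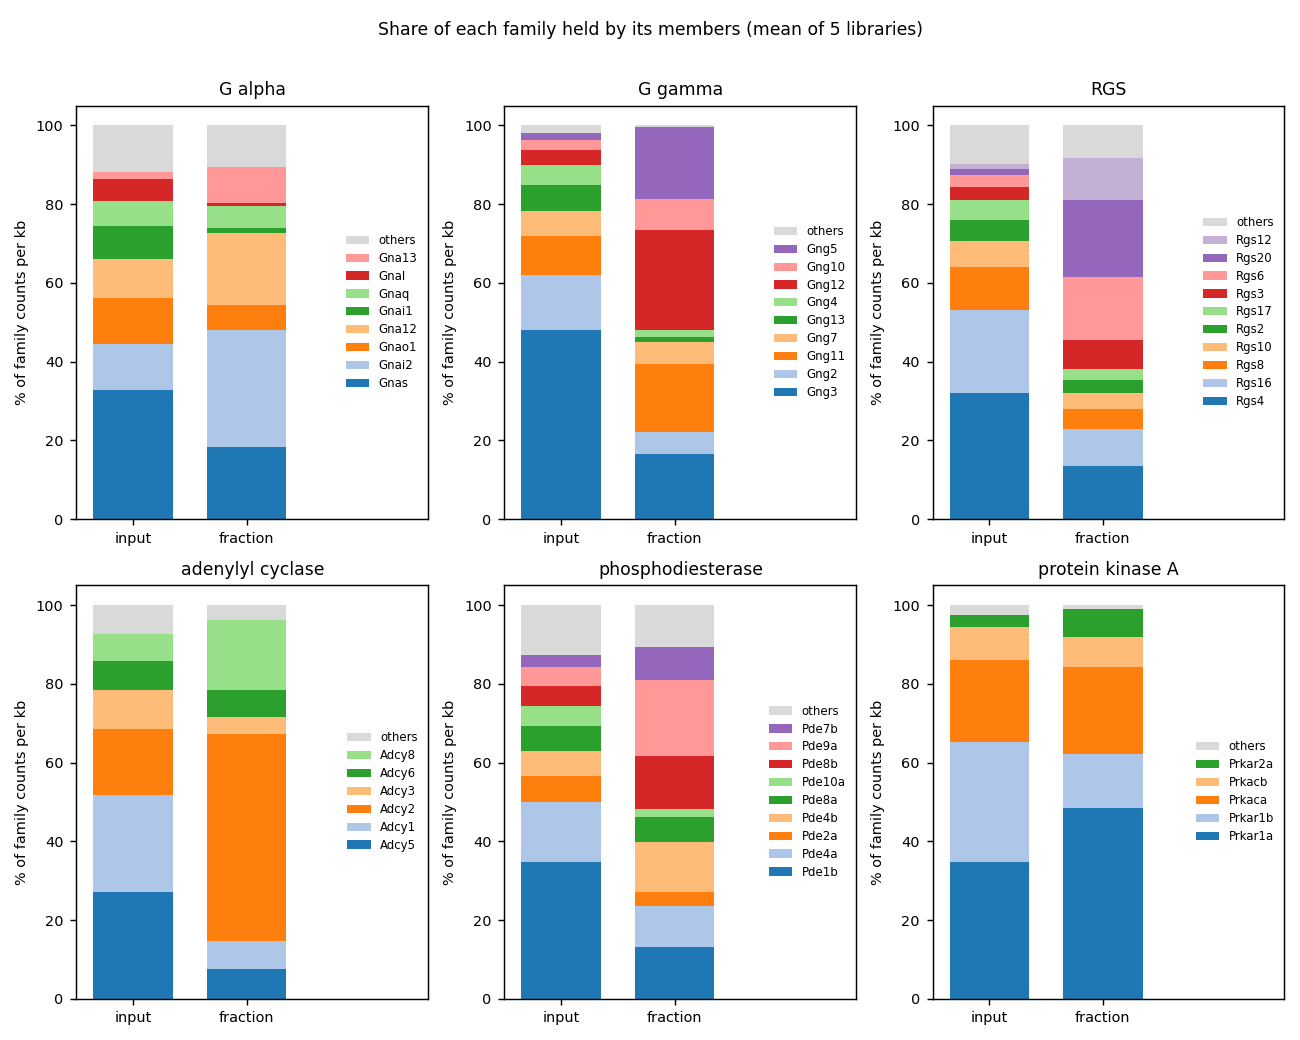
Mean share of each member in its family's summed CPM per kilobase of exon, in percent, for input and astrocyte fraction (n = 5 each); members under 5% in both groups are drawn together, and the RGS and phosphodiesterase bars hold the 16 genes with an RGS domain and the 18 enzymes only. The tallest band is Gnas in the input and Gnai2 in the fraction among G alpha subunits, and Gng3 and Gng12 among G gamma subunits, while among the cyclases Adcy5 and Adcy1 have similar bands in the input (27.1 ± 4.41% and 24.8 ± 6.22%, SD) and Adcy2 has the tallest in the fraction.

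Of the 6 G beta genes 2 rose, 3 fell and 1 was not called. Gnb1, which held 57.8 ± 2.09% of the G beta sum per kilobase in the input and 51.5 ± 0.911% in the fraction, stood at 632 ± 32.2 CPM in input libraries and 622 ± 29.9 CPM in fractions and was not called (log2 fold change -0.02, adjusted p = 0.75). Scaled to total counts it was called lower, by 0.31 on the log2 scale. Gnb2 rose from 239 ± 11.2 to 373 ± 15.0 CPM (0.64), Gnb4 fell by 1.10, and Gnb5, the partner of the R7 group of RGS proteins, fell by 0.48. Gnb3, known from cone photoreceptors, was at 1.22 ± 0.455 and 0.170 ± 0.139 CPM and fell by 2.21, a size that depends on the method at such low counts (-3.06 from the authors' log2 values with limma). Gnb1l, whose product has the fold of a G beta subunit but is not known as one, rose by 0.78. The ratio of Gnb1 to Gnb2 fell by 0.66 on the log2 scale.

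G gamma subunits split: 4 rose, 7 fell and none of the 11 missed the threshold, which 70.6% of all genes tested passed. Their log2 fold changes ran from -2.98 to 2.88. Gng5 (ENSMUSG00000068523, chromosome 3, 146499807 to 146505572) read 11.8, 11.5, 15.8, 10.1 and 11.8 CPM in the inputs and 89.0, 70.4, 98.4, 104 and 88.6 CPM in the fractions. Every fraction lay more than 4-fold above the highest input, with a log2 fold change of 2.88 ± 0.14 (adjusted p = 9.13e-10). Gng12 (ENSMUSG00000036402, chromosome 6, 66896397 to 67021350) went from 44.1, 43.3, 40.1, 40.7 and 41.2 CPM to 227, 242, 165, 232 and 201 CPM, a log2 fold change of 2.34 ± 0.10. Gng3 (ENSMUSG00000071658, chromosome 19, 8836929 to 8839246), a G gamma subunit known from neurons, fell from 179.9, 182, 191, 192 and 193 CPM to 43.7, 54.6, 41.7, 53.02 and 47.3 CPM, by 1.97 on the log2 scale. Input and fraction did not overlap for any of the 3. The log2 ratio of Gng5 to Gng3 went from -3.96 ± 0.23 to 0.90 ± 0.32, a 29.0-fold change and the largest of the pairs examined. Of the exon bases of Gng3, 24.2% are shared with Bscl2 on the other strand.

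The 250 bases before the start of Gng5 and of Gng3 are given as the pair that moved farthest apart (RefSeq, GRCm38.p6, 5′ to 3′ on the strand of the gene, CpG dinucleotides in capitals). The Gng5 window (chr3:146499586-146499835, plus strand) holds 44 CpG and the Gng3 window (chr19:8839247-8839496, minus strand) 2.
Gng5: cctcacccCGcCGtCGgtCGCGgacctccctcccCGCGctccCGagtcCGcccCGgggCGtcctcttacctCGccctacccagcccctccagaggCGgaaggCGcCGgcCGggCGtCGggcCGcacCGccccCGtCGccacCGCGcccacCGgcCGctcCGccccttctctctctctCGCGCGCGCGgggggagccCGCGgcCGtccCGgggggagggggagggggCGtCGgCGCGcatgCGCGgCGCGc
Gng3: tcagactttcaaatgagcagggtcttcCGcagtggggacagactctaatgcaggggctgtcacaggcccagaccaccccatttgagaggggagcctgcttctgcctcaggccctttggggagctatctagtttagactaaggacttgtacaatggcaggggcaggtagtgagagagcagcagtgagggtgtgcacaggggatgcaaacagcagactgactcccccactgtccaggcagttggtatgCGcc
The pair does not stand for the members at large. In windows from 250 bases before to 50 after a start, the start with the most CpG was taken for each gene. The median number of CpG was then 28.5 over the 18 higher members matched and 29 over the 44 lower members matched, against 21 over 11878 tested genes. Counted in this longer window, Gng5 held 52 and Gng3 held 2.

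Gng10 rose from 7.99 ± 1.24 to 18.9 ± 3.46 CPM (1.23), though 71.99% of its exon bases are shared with the gene model Gm20503 on the same strand, so its counts are uncertain. Gng11 rose by 0.38 and was not called when scaled to total counts (0.09, adjusted p = 0.488). Gng2 fell by 1.72, Gng4 by 1.86 and Gng13, known from taste and olfactory cells, by 2.75. Gng8 fell by 2.98, from 4.77 ± 3.51 to 0.499 ± 0.341 CPM, and Gngt2, known from cones, by 2.01. The counts of Gng13 are uncertain, as 51.6% of its exon bases lie opposite Chtf18. Gng7, known to pair with Gnal in striatum, fell by 0.63 (adjusted p = 0.0116), and without fraction 976 it was no longer called (-0.50, adjusted p = 0.059). Per kilobase, Gng3 held 48.02 ± 2.10% of the G gamma sum in the input and 16.4 ± 1.46% in the fraction, while Gng12 went from 3.73 ± 0.274% to 25.3 ± 2.59% and Gng5 from 1.85 ± 0.312% to 18.3 ± 2.74%. Without exon length, Gng12 took 43.0% of the counts in the fraction.

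RGS genes had the lowest median log2 fold change of the 8 families, -1.79, beside -0.06 over all genes tested. Of 18 genes 13 fell, 3 rose and 2 missed the threshold, against 37.5% lower and 33.1% higher of all genes tested. The 3 that rose belong to 3 groups of the family, and in each the other members fell. Rgs20 rose in the RZ group, where Rgs17 and Rgs19 fell. Rgs12 rose in the R12 group, where Rgs10 and Rgs14 fell. Rgs6 rose in the R7 group, where Rgs7, Rgs9 and Rgs11 fell. In the R4 group, small RGS proteins with little beyond the RGS domain, Rgs2, Rgs4, Rgs8 and Rgs16 fell and Rgs3 was not called.

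Rgs20 (ENSMUSG00000002459, chromosome 1, 4909576 to 5070285) read 16.3, 15.9, 17.0, 17.6 and 16.9 CPM across inputs and 77.8, 95.7, 58.5, 69.1 and 79.2 CPM in the fractions, a log2 fold change of 2.17 ± 0.12. Rgs17 fell from 98.1 ± 13.3 to 20.05 ± 3.95 CPM. With Rgs20 it encodes RGS proteins that act on Gi-type subunits, Gnaz among them, and the log2 ratio of Rgs17 to Rgs20 went from 2.54 ± 0.22 to -1.92 ± 0.34. Rgs12 (ENSMUSG00000029101, chromosome 5, 34949445 to 35039644) went from 21.9, 19.8, 23.7, 19.9 and 18.9 CPM to 79.1, 66.3, 82.5, 96.6 and 85.8 CPM (1.98 ± 0.11). Rgs14, its relative with the same Ras-binding and GoLoco domains, fell from 7.68 ± 1.49 to 1.01 ± 0.284 CPM, which moved the ratio of Rgs12 to Rgs14 by 4.84 ± 0.15 (log2, SE). Rgs6 rose from 70.8 ± 9.82 to 145 ± 18.3 CPM (1.03) and Rgs7 fell from 62.3 ± 6.88 to 19.5 ± 4.31 CPM (-1.70). All of these groups were separate.

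Rgs11 (ENSMUSG00000024186, chromosome 17, 26202951 to 26211324) had the lowest log2 fold change of the members. It read 10.6, 19.4, 16.0, 11.98 and 13.4 CPM in the inputs and 0.530, 1.17, 1.44, 0.770 and 0.633 CPM in the fractions, a fall of 3.92 (SE 0.29, adjusted p = 5.42e-08). Rgs4, an abundant RGS gene of neurons, fell from 236, 315, 186, 202 and 249 CPM to 40.5, 61.9, 24.3, 29.7 and 36.6 CPM, by 2.66 on the log2 scale. Fraction 92 was the highest of its group and still below every input. Rgs16 fell by 2.61, Rgs8 by 2.50, Rgs2 by 1.95 and Rgs10, which is known from microglia as well as neurons, by 2.04. Rgs9, known for dopamine receptor signalling in striatum, read 30.1, 9.18, 11.0, 12.6 and 13.6 CPM across inputs, among which input 88 stood alone, and 5.55, 0.587, 3.95, 5.09 and 3.80 CPM in the fractions (log2 fold change -1.88). Its membrane anchors fell too: Rgs7bp went from 286 ± 66.7 to 143 ± 40.7 CPM (-1.01), and Rgs9bp had a log2 fold change of -1.71 with overlapping groups. Rgs3 went from 87.3 ± 19.5 to 72.5 ± 7.81 CPM (-0.27, adjusted p = 0.0958). It was called lower in the fit blocked on title number (-0.24, adjusted p = 0.0241), without input 88 (-0.36, adjusted p = 0.0259) and when scaled to total counts. Rgs22, at 0.903 ± 0.363 and 1.24 ± 0.449 CPM, was not called (adjusted p = 0.223).

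Over the 16 genes with an RGS domain, the summed CPM per kilobase was shared out differently. Rgs4 held 32.1 ± 2.82% of it in the input and 13.4 ± 3.24% in the fraction, and Rgs16 21.2 ± 3.85% and 9.51 ± 3.66%. Rgs20 went from 1.69 ± 0.255% to 19.6 ± 1.496%, Rgs6 from 3.002 ± 0.480% to 16.0 ± 2.34% and Rgs12 from 1.06 ± 0.208% to 10.8 ± 2.38%. Without exon length Rgs6 was first in the fraction (145 ± 18.3 CPM), before Rgs12 (82.1 ± 11.0 CPM) and Rgs20 (76.0 ± 13.7 CPM). The sum over the 18 RGS symbols was 278 ± 41.4 CPM per kilobase in the input and 111 ± 17.2 in the fraction, with no overlap of libraries.

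**Figure D3:**
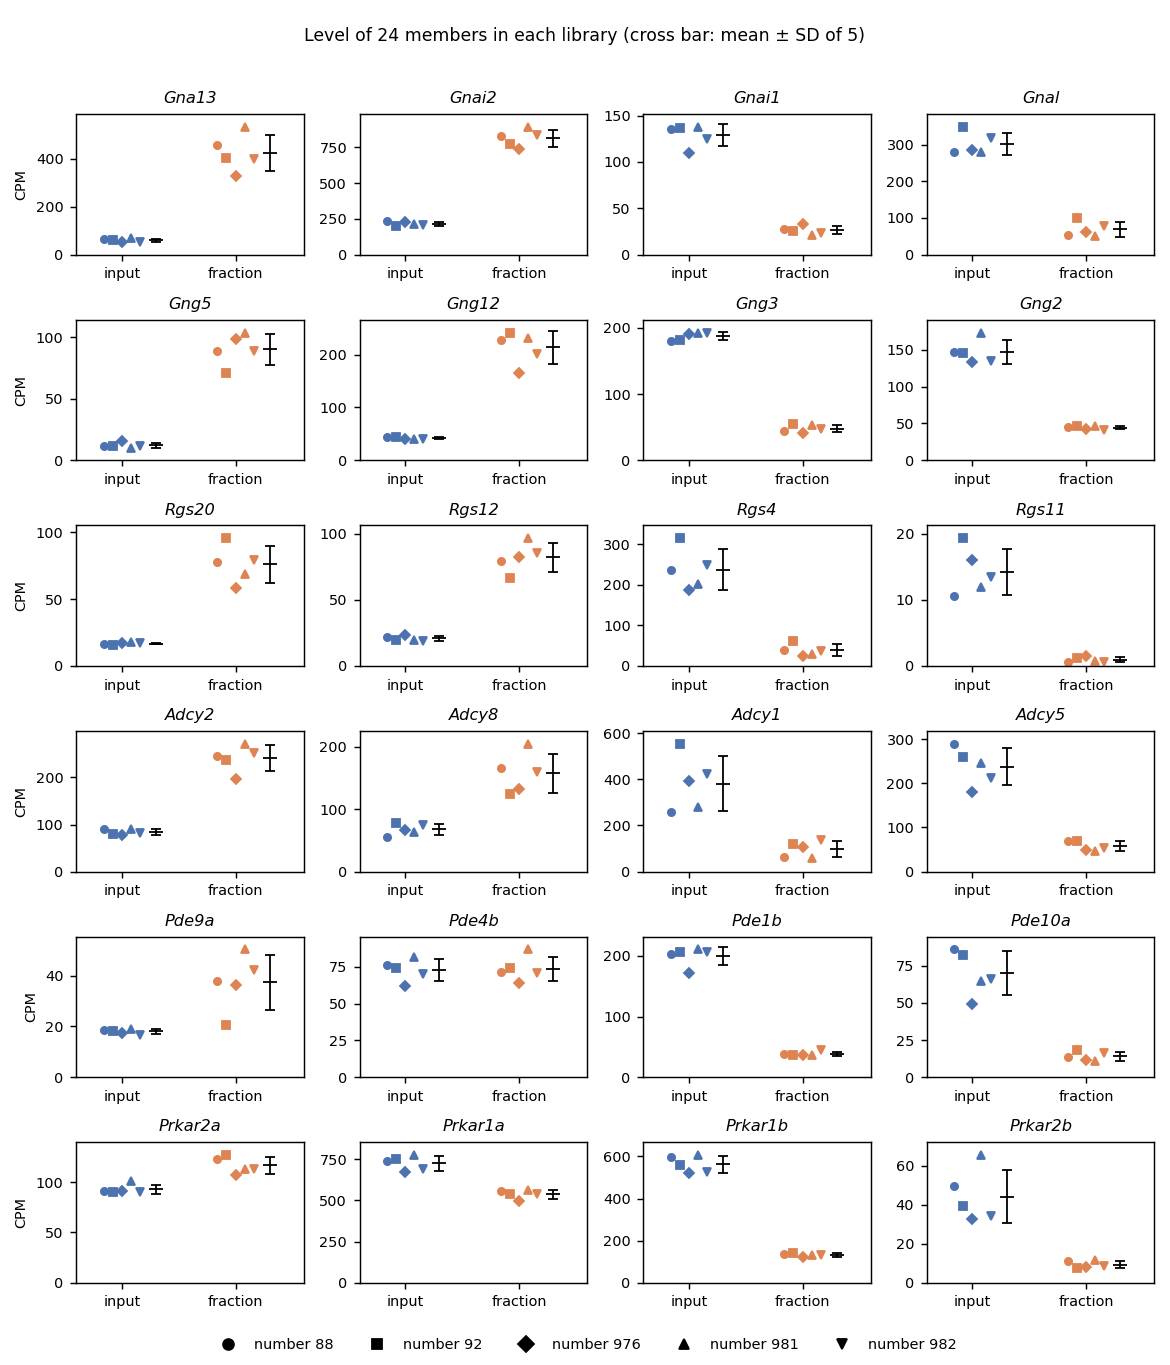
CPM of 24 members in each of the 10 libraries, marked by title number, with the mean and SD of each group (n = 5). Of these members Pde4b overlaps between the groups, Pde9a is lowest in fraction 92 (20.5 CPM), and Adcy1 inputs spread from 258 to 554 CPM.

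Of the 9 adenylyl cyclases, Adcy2 and Adcy8 rose, 5 fell and Adcy6 and Adcy4 were not called, beside 70.6% of all genes tested called. Adcy2 (ENSMUSG00000021536, chromosome 13, 68620043 to 68999541), which G beta-gamma stimulates in the presence of Gs, read 90.6, 79.5, 77.6, 91.4 and 82.5 CPM in the inputs and 246, 238, 197, 272 and 253 CPM in the fractions. Each fraction was above each input, with a log2 fold change of 1.51 ± 0.09 (adjusted p = 9.17e-09). Its relative Adcy7 fell from 22.1 ± 5.87 to 4.68 ± 1.43 CPM, and the ratio of Adcy2 to Adcy7 changed 13.5-fold.

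The calcium- and calmodulin-stimulated cyclases parted. Adcy8 (ENSMUSG00000022376, chromosome 15, 64697084 to 64922296) rose from 54.7, 77.4, 67.0, 64.0 and 74.2 CPM to 166, 124, 133, 205 and 159 CPM (1.22 ± 0.15). Adcy1 (ENSMUSG00000020431, chromosome 11, 7063489 to 7178506) fell from 258, 554, 392, 281 and 423 CPM to 61.6, 121, 107, 57.8 and 136 CPM (-1.99 ± 0.32). Within a group Adcy1 varied by more than 2-fold, with numbers 88 and 981 low in both, yet the groups did not overlap. The log2 ratio of Adcy1 to Adcy8 went from 2.45 ± 0.28 to -0.77 ± 0.80. Adcy3, known from olfactory neurons and primary cilia, fell by 1.33, and 22.1% of its exon bases lie opposite Cenpo.

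Of the calcium-inhibited pair, Adcy5, the main cyclase of striatum, fell from 238 ± 42.7 to 58.1 ± 11.0 CPM (-2.04). Adcy6 stood at 60.4 ± 3.81 and 49.1 ± 15.2 CPM and was not called (-0.28, adjusted p = 0.137). Adcy6 was called lower in 4 other settings: without fraction 976 (-0.40, adjusted p = 0.00867), without numbers 976 and 982 (-0.53, adjusted p = 0.00264), scaled to total counts (-0.56, adjusted p = 0.0125) and with a mean of at least 5 CPM (-0.38, adjusted p = 0.0491). Adcy9 fell by 0.76 (adjusted p = 0.00215) with overlapping groups, and without numbers 976 and 982 the call was lost (-0.64, adjusted p = 0.0658). Adcy4, at 2.31 ± 0.526 and 1.56 ± 0.862 CPM, was called lower only without fraction 981 (-0.74, adjusted p = 0.0464) among the settings tried. Per kilobase, Adcy2 held 16.5 ± 1.99% of the cyclase sum in the input and 52.5 ± 2.79% in the fraction, Adcy5 27.1 ± 4.41% and 7.48 ± 1.51%, and Adcy1 24.8 ± 6.22% and 7.16 ± 2.67%. Adcy5 and Adcy1 had no fixed order in the input libraries, and without exon length Adcy1 was ahead there, with 39.2% against 25.0%. The sum itself was 122 ± 11.6 and 109 ± 7.60 CPM per kilobase, and the libraries of the 2 groups overlapped.

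Of the 21 phosphodiesterase symbols tested, 5 rose, 14 fell and 2 were not called. The 8 enzymes that hydrolyse both cAMP and cGMP all fell, each by more than 1 on the log2 scale, against 24.3% of all genes tested called lower by more than 2-fold. Of the 8 cAMP-selective enzymes 2 rose, 5 fell and 1 was not called. Of the cGMP-selective enzymes Pde9a rose and Pde5a was not called. Whether these substrate groups differ from each other was not tested.

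Pde9a (ENSMUSG00000041119, chromosome 17, 31386234 to 31476310) read 18.7, 18.3, 17.6, 18.9 and 16.8 CPM across inputs and 37.8, 20.5, 36.2, 50.4 and 42.3 CPM in the fractions (1.07 ± 0.22). Fraction 92 was the lowest of its group and still above the inputs. Pde5a, also specific for cGMP, was at 4.75, 4.65, 6.15, 4.53 and 4.53 CPM and 3.18, 0, 13.6, 1.20 and 3.26 CPM. Fraction 976 stood apart, and the 0 of fraction 92 allows up to 0.880 CPM. Without fraction 976 Pde5a was called lower (-1.07, adjusted p = 0.0453). The choroid plexus markers were also highest in fraction 976, and their part in the Pde5a value was not tested.

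Pde1b (ENSMUSG00000022489, chromosome 15, 103503034 to 103530052), a calcium- and calmodulin-stimulated enzyme, fell from 203, 207, 172, 211 and 206 CPM to 38.8, 36.1, 37.0, 35.8 and 45.0 CPM (-2.37 ± 0.08), without overlap. Pde10a, known from striatum, fell from 69.9 ± 14.8 to 14.2 ± 3.08 CPM, and Pde2a, which cGMP stimulates, from 42.1 ± 7.64 to 12.1 ± 2.43 CPM. Pde2a shares 64.3% of its exon bases with the gene model Gm45837 on the same strand, so its counts are uncertain. Pde3b fell by 2.49, Pde1a by 1.75, Pde11a by 1.74, Pde3a by 1.19 and Pde1c by 1.02. The groups overlapped for Pde3a and Pde1c, and Pde3a lost its call without numbers 976 and 982 (-1.32, adjusted p = 0.0545).

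The rolipram-sensitive PDE4 enzymes, selective for cAMP, were unequal. Pde4b read 76.1, 73.9, 62.0, 81.5 and 70.2 CPM across inputs and 71.4, 74.2, 64.2, 86.8 and 70.8 CPM in the fractions. The groups overlapped and it was not called (0.01, adjusted p = 0.9), while scaled to total counts it was called lower (-0.27, adjusted p = 0.0144). Pde4a fell from 124 ± 8.26 to 43.5 ± 7.88 CPM (-1.50), Pde4d from 39.1 ± 6.52 to 20.2 ± 3.42 CPM (-0.97) and Pde4c by 1.75. The ratio of Pde4a to Pde4b fell by 1.55 and that of Pde4b to Pde4d rose by 0.96 on the log2 scale. Among the cAMP-selective PDE7 and PDE8 enzymes, the b form rose and the a form fell in both families: Pde7b rose by 0.54 and Pde8b by 0.48, and Pde7a fell by 0.81 and Pde8a by 0.97. The rises of Pde7b and Pde8b had overlapping groups and were not called when scaled to total counts (0.26, adjusted p = 0.106, and 0.19, adjusted p = 0.208). The ratios within these 2 families do not depend on the scaling and fell by 1.35 (Pde7a to Pde7b) and 1.48 (Pde8a to Pde8b).

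Pde6d rose from 34.7 ± 2.68 to 78.6 ± 6.53 CPM (1.19). Pde12, a mitochondrial enzyme that trims poly(A) tails and is no cyclic nucleotide phosphodiesterase, rose by 0.44 and was not called when scaled to total counts (0.16, adjusted p = 0.289). Pde4dip, an anchor of PDE4 at the centrosome and Golgi, fell by 0.47. Over the 18 enzymes that hydrolyse cyclic nucleotides, Pde1b held 34.8 ± 1.32% of the summed CPM per kilobase in the input and 13.1 ± 0.957% in the fraction. Pde9a went from 4.80 ± 0.226% to 19.1 ± 4.67%, Pde8b from 4.96 ± 0.743% to 13.6 ± 1.73%, Pde4b from 6.46 ± 0.350% to 12.8 ± 1.47% and Pde4a from 15.3 ± 1.66% to 10.4 ± 1.499%. The order depends on exon length. Without it Pde9a was not first in the fraction, at 37.4 ± 10.9 CPM against 73.5 ± 8.29 CPM for Pde4b and 58.2 ± 8.05 CPM for Pde7b.

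Of the PKA subunits 5 fell, against 37.5% of all genes tested. Only Prkar2a rose, by 0.33, a call that was lost when scaled to total counts (0.04, edgeR adjusted p = 0.618). Prkar1b (ENSMUSG00000025855, chromosome 5, 139017306 to 139150001), the type I regulatory subunit known mainly from neurons, read 599, 558, 521, 607 and 527 CPM across inputs and 138, 143, 122, 131 and 130.5 CPM in the fractions. The groups lay far apart, with a fall of 2.08 on the log2 scale (SE 0.06, adjusted p = 1.09e-10). Prkar1a (ENSMUSG00000020612, chromosome 11, 109649405 to 109669656), the type I subunit of most tissues, went from 739.6, 751, 671, 776 and 689 CPM to 556, 537, 495, 562 and 537 CPM, a smaller fall of 0.43 with no overlap. The log2 ratio of Prkar1a to Prkar1b rose by 1.65 ± 0.04 (SE) from 0.37 ± 0.05 to 2.02 ± 0.07. In the type II pair, Prkar2b fell from 44.2 ± 13.6 to 9.34 ± 1.97 CPM (-2.21) and the ratio of Prkar2a to Prkar2b rose by 2.54 ± 0.21. The catalytic subunits fell less, Prkaca from 249.5 ± 12.9 to 140.4 ± 9.20 CPM (-0.83) and Prkacb from 357 ± 53.9 to 174 ± 26.6 CPM (-1.03). Their ratio was not called (exact permutation test, adjusted p = 0.105).

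Summed per kilobase, the PKA genes went from 483 ± 34.6 to 256 ± 13.6 CPM, with no overlap of libraries. Prkar1a held 34.8 ± 0.849% of the sum in the input and 48.5 ± 1.15% in the fraction, Prkar1b 30.6 ± 0.448% and 13.6 ± 0.475%, and Prkaca 20.8 ± 0.609% and 22.0 ± 1.08%. The catalytic subunits of AMP-activated kinase both fell, Prkaa1 by 0.43 and Prkaa2 by 1.20.

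PKA is known to act on transcription through CREB, which binds the cAMP response element TGACGTCA, or its shorter form TGACG, which reads CGTCA on the other strand. Windows from 250 bases before to 50 after the start were in the RefSeq table for 68 members, with 119 starts. The full element was present in 1 of them, Prkar1a (1.47%), against 3.48% of 11878 tested genes matched. The short form was present in 26 members (38.2%), against 33.5% of the tested genes. Over all 32851 promoter windows of the table, 1.79% held the full element and 20.8% the short form. It was in 6 of 18 higher and 18 of 44 lower members. Shown are the 250 bases before a start of Prkar1a (chr11:109650699-109650948, plus strand) and of Prkar1b (chr5:139150002-139150251, minus strand), the type I pair, on GRCm38.p6, 5′ to 3′ on the strand of the gene, with the short form in capitals on either strand. The full element of Prkar1a, in which both strands' short forms overlap, begins 49 bases before that start.
Prkar1a: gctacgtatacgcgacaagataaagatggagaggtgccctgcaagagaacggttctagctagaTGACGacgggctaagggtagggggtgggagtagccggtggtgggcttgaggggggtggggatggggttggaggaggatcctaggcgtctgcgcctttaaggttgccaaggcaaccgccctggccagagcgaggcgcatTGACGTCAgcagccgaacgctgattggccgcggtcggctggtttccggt
Prkar1b: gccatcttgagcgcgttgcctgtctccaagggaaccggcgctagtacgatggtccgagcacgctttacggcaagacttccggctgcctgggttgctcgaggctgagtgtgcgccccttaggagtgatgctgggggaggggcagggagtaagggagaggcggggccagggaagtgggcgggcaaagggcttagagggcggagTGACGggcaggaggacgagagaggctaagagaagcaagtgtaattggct
The starts shown are 1 of 6 listed for Prkar1a and 1 of 5 listed for Prkar1b. A match is a description of letters and not of a site in use.

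Ratios between genes of the same family within a library do not depend on how libraries are scaled to each other. Whether the genes of a pair are the closest relatives in their family was not examined. In all, 33 pairs were compared, and 24 differed between fraction and input (exact two-sided permutation test over 5 against 5 libraries, Benjamini-Hochberg over 33 pairs). The pairs were chosen with earlier results of these data known, so their p-values are no independent support and describe these pairs only. Of single genes, edgeR called 70.6% of all tested. How often pairs of other genes differ was not tested. The smallest p this design allows, 0.00794, was reached by the 22 pairs without overlap, at an adjusted p of 0.0119. All 24 moved in the same direction in all 5 title numbers, but an exact sign-flip test over the numbers cannot go below 0.0625 and called 0 pairs, adjusted or not. In 13 pairs the genes themselves were called in opposite directions.

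**Figure D4:**
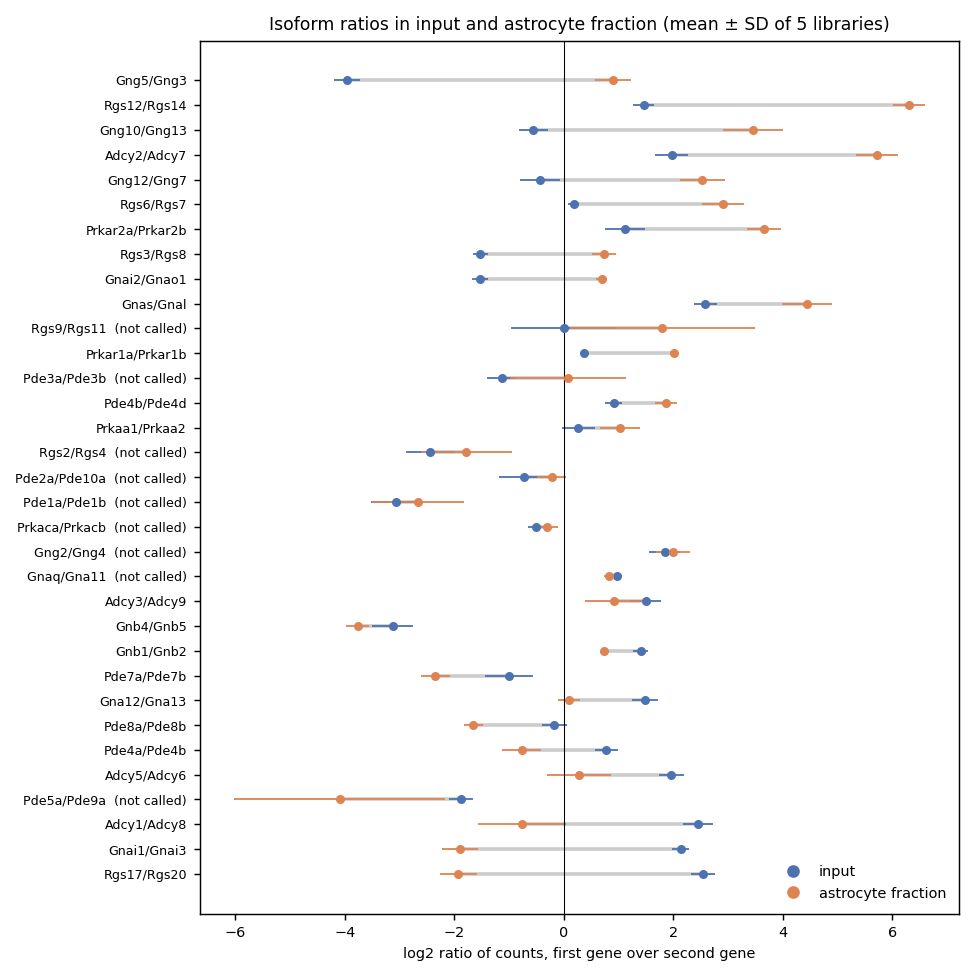
Mean within-library log2 ratio of the first to the second gene of 33 pairs in input and astrocyte fraction, with SD (n = 5 each). The ratio of Gng5 to Gng3 crosses from -3.96 to 0.90, and 9 pairs, Prkaca to Prkacb among them, were not called.

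After Gng5 to Gng3, the largest changes of ratio were 28.7-fold for Rgs12 to Rgs14, 22.0-fold for Rgs17 to Rgs20, 16.4-fold for Gnai1 to Gnai3 and 16.1-fold for Gng10 to Gng13. Gng12 to Gng7 rose by 2.96 ± 0.25, Rgs6 to Rgs7 by 2.73 ± 0.18, Rgs3 to Rgs8 by 2.26 ± 0.12 and Gnai2 to Gnao1 by 2.23 ± 0.08 (log2, SE). Adcy5 to Adcy6 fell by 1.69 and Gnb4 to Gnb5 by 0.64. The weakest of the called pairs were Prkaa1 to Prkaa2 (0.77 ± 0.21, adjusted p = 0.0228 by the exact permutation test) and Adcy3 to Adcy9 (-0.59 ± 0.26, adjusted p = 0.0437 by the same exact test). Prkaa1 to Prkaa2 lost its call without input 92 or input 981 (adjusted p of 0.0569 in either case, exact permutation test). Adcy3 to Adcy9 lost it without any single input and without fraction 92, 976 or 982.

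For the 9 pairs not called, the differences were -0.15 ± 0.06 for Gnaq to Gna11, 0.15 ± 0.19 for Gng2 to Gng4, 0.66 ± 0.42 for Rgs2 to Rgs4 and 1.80 ± 0.87 for Rgs9 to Rgs11 (log2, SE). They were 0.41 ± 0.43 for Pde1a to Pde1b, 0.50 ± 0.24 for Pde2a to Pde10a, 1.21 ± 0.49 for Pde3a to Pde3b, -2.21 ± 0.87 for Pde5a to Pde9a and 0.20 ± 0.11 for Prkaca to Prkacb. In 6 of these leaving out a single library gave a call. Gnaq to Gna11 (-0.19, adjusted p = 0.0228), Rgs2 to Rgs4 (0.98, adjusted p = 0.0119) and Rgs9 to Rgs11 (2.50, adjusted p = 0.0302) were called without fraction 92 by the exact permutation test. Pde5a to Pde9a was called without fraction 976 (-2.89, adjusted p = 0.0119) and Pde3a to Pde3b without fraction 88 (1.64, adjusted p = 0.0114) by the same exact test. Pde2a to Pde10a was called without input 976 (0.66, adjusted p = 0.0342, exact permutation test).

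The other genes of the pathway were read from a list of 69 symbols, of which 60 were in the table and 59 were tested. Of these 14 rose, 35 fell and 10 were not called, and the median was -0.79 on the log2 scale. Over all genes tested 33.1% were called higher and 37.5% lower, with a median of -0.06. At the receptor, the arrestin gene Arrb1 rose by 1.10 while Arrb2 fell by 1.17, and the receptor kinases Grk2 and Grk5 fell by 0.94 and 1.55. Of the G protein chaperones and modulators 3 rose, Gpsm2 among them (1.08), and 5 fell, with Gprin1 at -2.18. The Gq effectors split evenly: the phospholipase C genes Plcb3 (2.31) and Plcb1 (1.61) rose, and Plcb4 (-2.27) and Plcb2 (-3.79) fell.

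Downstream of cAMP, the exchange factor gene Rapgef3 (Epac1) rose from 48.8 ± 2.83 to 193 ± 12.9 CPM (1.99) and its relative Rapgef4 (Epac2) fell from 188 ± 30.2 to 47.5 ± 5.01 CPM (-1.97). Of the 12 anchoring protein genes 10 fell, Akap12 by 2.12, against 37.5% of all genes tested. Akap7 rose by 0.33 (edgeR adjusted p = 0.0495). The PKA inhibitor genes Pkia and Pkib fell by 0.65 and 2.41. Creb1 was not called (-0.16), while Atf1 (1.12), Crem (1.10) and the coactivator gene Crtc3 (1.39) rose and Crtc1 (-1.06) fell. On the cGMP side, the receptor guanylyl cyclase gene Npr2 rose by 1.20, and the soluble cyclase gene Gucy1b3 and the kinase gene Prkg2 fell by 1.40 and 2.84. Of the 5 PKA-regulated phosphoprotein genes 2 rose, 2 fell and 1 was not called, with a median of -0.06 on the log2 scale. Ppp1r1b, which encodes the PKA target DARPP-32, rose by 2.07 ± 0.47 (adjusted p = 0.00193) and Arpp19 by 0.35, Ensa fell by 0.38 and Arpp21 by 0.48, and Ppp1r1a stood at -0.06.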

How the data were processed

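RNA of 10 libraries was analysed, 5 input and 5 astrocyte fraction (posfxn), each made from 25 ng of total RNA with the NEB Ultra II kit, per the labels' protocols. The authors deposited a table of 18464 genes. Its expected counts, that is estimated counts per gene and library, were made by the authors and are not scaled. Its log2 values were normalized by the authors, and were centred on the input as deposited. CASAVA 1.8, DESeq and mm10 are named, without a role, per the submitters' processing notes. Aligner, counter and strand setting: not given in the sources used here. Counts of genes with overlapping neighbours are therefore uncertain. Totals of expected counts were 21812193 to 30878894 in the input and 3845554 to 26924406 in the fraction, and 3 counts, the most that a count of 0 allows, are 0.880 CPM in fraction 92 and 0.0912 to 0.136 CPM elsewhere. This covers counting error only.

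After rounding to whole numbers, the expected counts entered edgeR 4.0.16 (R 4.3.3), with TMM scaling, the low-count filter of filterByExpr at a minimum of 10 counts (792 genes removed), the robust quasi-likelihood test and Benjamini-Hochberg adjustment over 17672 genes, with a threshold of 0.05. Log2 fold changes (fraction minus input) were computed with a prior of 2 counts, and their SE is that of the difference of mean log2 CPM. Ratios of the gene pairs used counts plus 0.5 and an exact two-sided permutation test over libraries. Shares used merged exon lengths of GENCODE M21, in which 82 of 88 members had the table's coordinates. Promoters came from RefSeq (GRCm38.p6). The count model was tested on simulated data in which far fewer genes changed than were called here, equally many up and down. That test does not cover the scaling when most genes change.

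Members, gene lists and the pairs were chosen with earlier results of these data known. Genes named are all members of the pairs, up to 3 called members with the largest change in each direction per family with a mean of at least 5 CPM, and every member not called; other members and the pathway genes named were chosen after their values were seen. Alternatives were DESeq2 1.42.0, its size factors, total-count scaling, limma 3.58.1 on the authors' log2 values, other filters, the title number as a block and libraries left out. Libraries with the same title number deviated together: the correlations of their deviations from the group means were 0.189 to 0.493 for the 5 numbers, against -0.317 to 0.302 (mean -0.0791) for the 20 pairs of different numbers. The ranges overlap. The numbers were taken to pair the samples because every same-number correlation was above 0.1. Some pairs of different numbers also passed 0.1, and input 982 correlated more with fraction 976 (0.220) than with fraction 982 (0.189). The correlations alone therefore do not settle the pairing. No 2 libraries of a group agreed within sampling noise (lowest chi-square per degree of freedom 11.6).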

Additional observations from a re-analysis of the deposited data

Results flagged for a closer look

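In 10 of 142 sets of 5 libraries examined (1 member in 1 group each), a single library lay apart from the other 4 by Dixon's test for 5 samples. Chance flags about 1 in 20 groups. Fraction 92, the library with the fewest counts, held 3 of them. It was the lowest for Gnb4 (3.81 CPM, against 6.07 to 6.73 CPM in the other fractions) and for Pde6d (67.2 CPM, against 79.6 to 83.3 CPM), and the highest for Rgs16 (40.5 CPM, against 13.3 to 18.7 CPM). Number 976 held 4: Pde5a was highest in both of its libraries (6.15 CPM in input 976 and 13.6 CPM in fraction 976), Pde1b was lowest in its input (172 CPM) and Gna11 lowest in its fraction (128 CPM). Input 88 was highest for Rgs9 (30.1 CPM, against 9.18 to 13.6 CPM in the other inputs). The others were Pde1a in fraction 88 (14.8 CPM, highest) and Prkar2a in input 981 (101 CPM, highest).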

How the results depend on the processing

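Of the 86 members tested, 71 kept their call and direction in all 19 alternative settings in which they could be tested. Neither DESeq2, its size factors in edgeR nor the authors' log2 values with limma changed a member's call. Leaving out 1 library at a time gave 23 higher members throughout, 55 to 56 lower members, and 22 to 26 called pairs. Scaling to total counts moved the median of all genes from -0.06 to -0.34 and that of the members from -0.97 to -1.25: 17 members were then higher and 59 lower, and the share of higher genes among those called went from 46.9% to 34% over all genes and from 29.5% to 22.4% over members. Under it Pde4b turned to -0.27, 2 phosphodiesterase members were higher and 0 PKA members. With a mean of at least 5 CPM, 1 G beta member was higher, because Gnb1l (mean of 4.70 CPM over all libraries) was left out by that filter. Among the 72 members compared in this setting 0 calls were lost and 2 were gained. Without numbers 976 and 982 a median log2 fold change of all genes of 0.0126 was found. The fit with the title number as a block changed 1 member's call, that of Rgs3, and the paired sign-flip test over title numbers called 0 pairs, since 5 numbers cannot go below p = 0.0625 (exact). Depth limits fraction 92, in which 1713 genes of the table had no count.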

Other observations

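Spread among libraries was a little wider for the members than for genes at large: over the 72 members with a mean of at least 5 CPM, the median coefficient of variation was 11.5% in the input and 16.7% in the fraction, against 9.86% and 14.2% over 12122 genes. Gnai3 was the steadiest member in the input (1.47%) and Rgs9 the most variable (55.1%). Adcy1 was highest in inputs 92, 982 and 976 (554, 423 and 392 CPM) and lower in 981 and 88 (281 and 258 CPM). Prkar2b was highest in input 981 (65.4 CPM, against 32.5 CPM in input 976). Gng8 stood at 7.74 and 9.31 CPM in inputs 976 and 982 and at 1.75 to 3.14 CPM in the other 3. The summed dopamine neuron markers also differed among inputs, from 1320 CPM in number 981, 900 in number 92 and 615 in number 88 to 291 and 283 in numbers 976 and 982. Its part in these values was not tested.

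The 3 processed pseudogenes that the symbol pattern also matched were low: Prkaca-ps1 had means of 2.72 CPM (input) and 1.56 CPM (fraction), Gnb1-ps3 0.397 and 0.224 CPM, and Gng2-ps1 0.344 and 0.101 CPM. Reads shared with the parent genes could have been split by the authors' counting.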
